A study of Mus musculus with 12 samples.

Results

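The BCL2 family survival genes were described in eosinophils of the mouse small intestine (SI) as 10 genes, each taken by its gene symbol from the deposited table of 36047 genes. All 10 were found. They comprise the prosurvival genes Mcl1, Bcl2, Bcl2l1, Bcl2a1a, Bcl2a1b, and Bcl2a1d, the BH3-only genes Bcl2l11 and Bbc3, and the effector genes Bax and Bak1. RNA was sequenced from 3 subsets of eosinophils, with 4 libraries each. These were α4β7+ cells, which carry the gut-homing integrin, α4β7− CD22− cells, which carry neither marker, and CD22+ cells, and the study takes them to be approximately younger, intermediate, and older eosinophils. All 12 libraries came from wild type C57BL/6J mice labelled as female, fed standard chow, with no treatment given in the labels, and the study's methods state that 2 mice were pooled for each library and that live cells gated as SiglecF+ eosinophils without MHCII or Ly6G were sorted from the proximal SI. No age of the animals is in the labels, and the study's methods give an age range for all its experiments but no age for these libraries. The subsets differ only by the sort.

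BCL2 family proteins decide whether the outer mitochondrial membrane of a cell stays intact. Prosurvival members hold the effectors BAX and BAK in check, BH3-only members such as BIM and PUMA bind and block the prosurvival members, and free effectors open pores through which cytochrome c leaves and activates caspases. Eosinophils are postmitotic cells, and IL-5 is a cytokine known to act on their production and survival. In the SI, the study found only a modest rise of turnover without IL-5. It proposes that eosinophils there come to depend on retinoic acid instead. In mouse leukocytes the prosurvival protein A1 is encoded by several near-identical Bcl2a1 genes.

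Because the Bcl2a1 copies differ so little, the sequences before their start sites are shown first. They lie within a short stretch of chromosome 9, with Bcl2a1a (ENSMUSG00000102037) at chr9:88956900-88962419 and Bcl2a1b (ENSMUSG00000089929) at chr9:89199209-89207827 on the plus strand, and Bcl2a1d (ENSMUSG00000099974) at chr9:88723285-88731914 on the minus strand (GRCm38). The lines below give the bases before both the RefSeq start and the GENCODE start of each copy, read 5′ to 3′ along the gene from the RefSeq promoter sequences of GRCm38.p6. Capitals mark the AP-1-like pattern TGANTCA, where N is any base, and the PU.1 motif GAGGAAGT, each searched on both strands. Bcl2a1a covers chr9:88956670-88956899, Bcl2a1b covers chr9:89199023-89199208, and Bcl2a1d covers chr9:88731915-88732100 on the minus strand.
Bcl2a1a: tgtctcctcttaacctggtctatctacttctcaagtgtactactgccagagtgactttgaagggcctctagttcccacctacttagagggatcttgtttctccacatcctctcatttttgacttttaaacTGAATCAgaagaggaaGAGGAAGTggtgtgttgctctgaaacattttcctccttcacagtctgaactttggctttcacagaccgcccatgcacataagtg
Bcl2a1b: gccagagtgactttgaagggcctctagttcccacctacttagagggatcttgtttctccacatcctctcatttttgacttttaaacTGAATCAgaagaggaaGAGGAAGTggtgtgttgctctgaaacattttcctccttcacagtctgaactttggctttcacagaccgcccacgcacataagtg
Bcl2a1d: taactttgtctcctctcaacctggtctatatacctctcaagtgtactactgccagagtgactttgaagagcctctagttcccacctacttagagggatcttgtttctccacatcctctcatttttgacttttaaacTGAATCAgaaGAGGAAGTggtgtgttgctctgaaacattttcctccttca
Where aligned, Bcl2a1a and Bcl2a1b were identical at 185 of 186 columns (99.5%), Bcl2a1a and Bcl2a1d at 176 of 186 (94.6%), and Bcl2a1b and Bcl2a1d at 135 of 142 (95.1%). All 3 copies held a match to both. The AP-1-like match was TGAATCA in each copy, with A at N and not C or G. It began 120, 164, and 114 bases before the RefSeq start of Bcl2a1a, Bcl2a1b, and Bcl2a1d. The PU.1 match began 104, 148, and 104 bases before the same starts. Of 32817 promoters of 250 bases, 6.75% held the AP-1-like pattern with any base at N, and 2.44% the PU.1 motif.

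The transcripts share sequence in the same way, which limits how well reads can be assigned to 1 copy. Of the 31-base words in the transcripts of a copy, 79.6% of those of Bcl2a1a, 88.8% of those of Bcl2a1b, and 89.1% of those of Bcl2a1d also occurred in another gene. This left 161, 88, and 91 words that belonged to 1 copy alone. The values of the single copies are therefore estimates of a split, and their sum is given beside them. Among the other members, 20.4% of the words of Bak1 occurred in another gene, mainly the neighbouring Ggnbp1, and 11.1% of those of Bax. For Bcl2, Mcl1, Bcl2l11, Bcl2l1, and Bbc3 the share was 6.19% or less.

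The normalized counts of a library summed to between 14286474 and 16915755, and these sums did not overlap between subsets, at 15783607 to 16915755 for α4β7+ libraries, 15011473 to 15740374 for those of α4β7− CD22− cells, and 14286474 to 14758267 for those of CD22+ cells. About 1 read was worth 0.85 to 1.16 normalized counts, so that a floor of 3 reads lay near 2.55 to 3.48, and every member was above it in every library. The eosinophil genes Siglecf and Ccr3 were at 6884 or more and 10103 or more in every library. RNA of other cells was present: the sum of 7 B or plasma cell genes ranged from 8906 to 29828 over the 12 libraries, with overlapping ranges in the 3 subsets, and the sum of 8 epithelial genes from 1479 to 7063, also with overlapping ranges. Over 6 eosinophil genes, 4 fell in CD22+ compared with α4β7+ cells (Ccr3, Epx, Prg2, and Il5ra), and their sum ranged from 68717 to 76449 with α4β7+, from 55729 to 60683 with neither marker, and from 47579 to 52282 with CD22. The sum of 8 neutrophil genes ran the other way, from 1188 to 1442 with α4β7+, from 2070 to 2348 with neither marker, and from 2495 to 3209 with CD22, and Csf3r and Cxcr2 made up most of it, whereas S100a8 and Camp were below 2 in every library. Csf3r and Cxcr2 rose in CD22+ compared with α4β7+ cells, while Mmp8 fell from 34.8 ± 14.8 to 4.98 ± 4.13 and S100a9 from 19.0 ± 16.3 to 2.87 ± 2.92 (limma adjusted p = 0.0014 and 0.0251). Summed T cell genes were at 588 to 849 with neither marker, below the 868 to 1542 with α4β7+ and the 861 to 1315 with CD22, and Cd3e and Cd8a fell with neither marker compared with α4β7+. Summed stroma or vessel genes were at 11986 to 13395 with neither marker, above the 9986 to 11101 with α4β7+ and the 10761 to 11619 with CD22, but Pecam1 made up nearly all of this sum, and the means of the other 3 genes (Col1a1, Col1a2, and Cdh5) were lower with neither marker than with α4β7+, with overlapping libraries. The part of these RNAs in the results below was not tested.

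Levels of different genes were compared per kb of the longest coding transcript of each gene. Mcl1 had the highest level per kb in all 3 subsets, at 6775 ± 251 (SD, n = 4) in α4β7+ and 5091 ± 266 in CD22+ cells. Bcl2a1b, Bcl2a1a, and Bcl2a1d followed, at 4159 ± 944, 1843 ± 195, and 687 ± 200 per kb in α4β7+ cells, although the order of the copies rests on the split of shared reads. Bak1 and Bax came next. In α4β7+ cells the libraries of Bcl2a1d overlapped those of Bak1, and those of Bak1 overlapped those of Bax. Bcl2l1 and Bcl2l11 were at 157 ± 26 and 139 ± 21 per kb, with overlap, in α4β7+ cells, and at 148 ± 15 and 242 ± 17 per kb without overlap in CD22+ cells. Bcl2 and Bbc3 had the lowest levels per kb, at 69.5 ± 9.2 and 30.1 ± 4.4 in α4β7+ cells. With the median coding transcript length in place of the longest, Mcl1, Bcl2a1b, and Bcl2a1a kept their ranks in all 3 subsets, but Bbc3 lay above Bcl2 in α4β7+ cells, with overlapping libraries, and Bcl2l11 lay above Bcl2l1 in all 3 subsets, with overlap in α4β7+ cells. The order of Bcl2l1 and Bcl2l11 in α4β7+ cells thus depended on the length used.

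**Figure D1:**
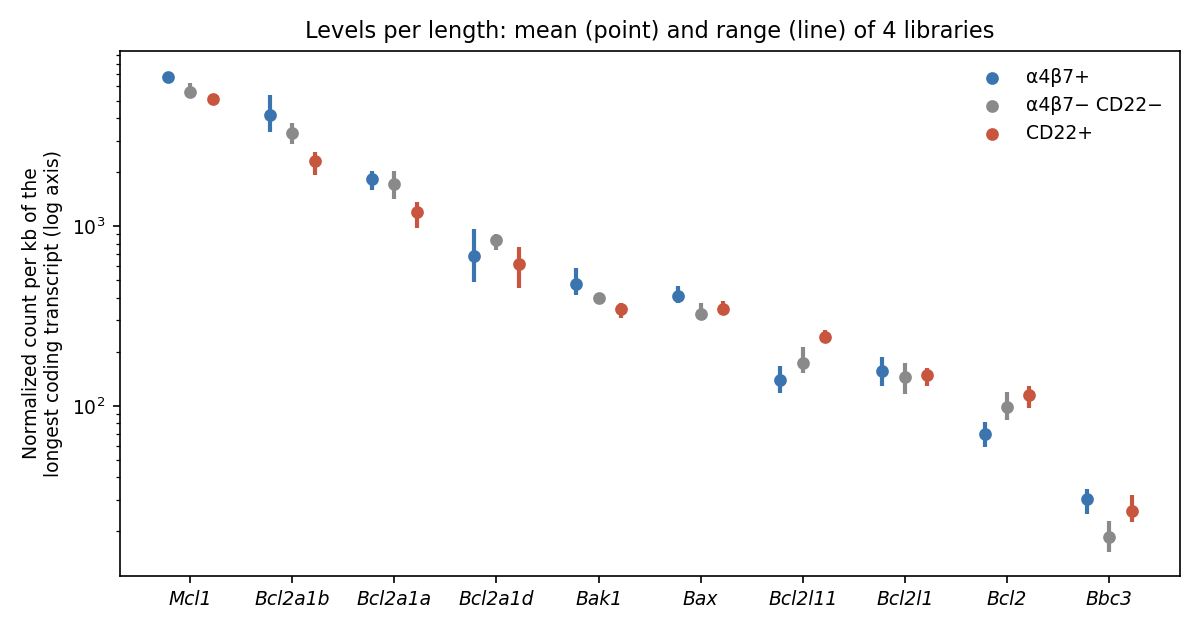
Level of each member as normalized counts per kb of its longest coding transcript (y axis, log scale) in the 3 subsets; points are means and lines the range of 4 libraries. Mcl1 lies highest and Bbc3 lowest, and Bcl2l11 is above Bcl2l1 in CD22+ libraries but overlaps it in α4β7+ libraries.

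The main comparison was of CD22+ with α4β7+ cells. Bcl2l11 and Bcl2 rose, Bcl2a1b and Bcl2a1a fell, and the other 6 members did not meet the call rule, for which limma, fitted across 15249 genes, had to give a change of 1.5-fold or more with an adjusted p no higher than 0.05. Thus 4 of 10 members were called (2 higher and 2 lower), beside 12.0% of all genes tested (5.60% higher and 6.39% lower). By the adjusted p alone it was 6 of 10 members beside 21.1% of all genes, as Mcl1 and Bak1 were also lower. The libraries of the 2 subsets did not overlap for 6 of 10 members, beside 22.9% of all genes. The members' median log2 change was −0.23, beside 0.01 for all genes tested. These shares count the Bcl2a1 copies as separate genes. With the copies summed into 1 row, 3 of 8 were called. In bulk RNA, fewer cells that express a gene and less RNA per cell cannot be told apart.

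**Figure D2:**
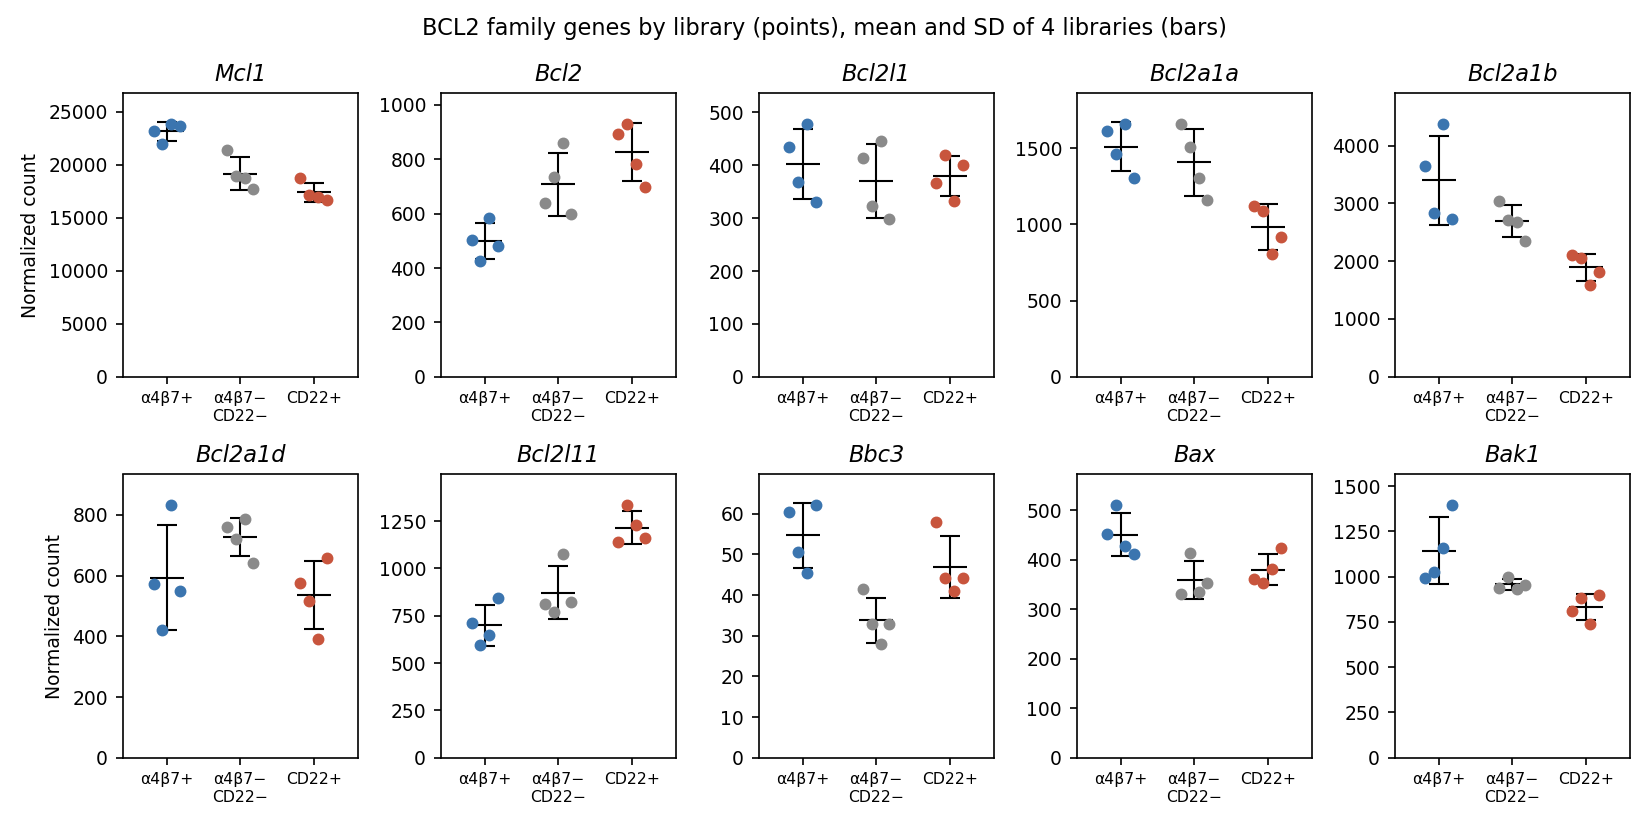
Normalized count of the 10 members in each of the 12 libraries (points; y axis from 0), with the mean and SD of the 4 libraries of a subset (bars). The 4 CD22+ libraries lie above all α4β7+ libraries for Bcl2l11 and Bcl2 and below them for Mcl1, Bcl2a1a, Bcl2a1b, and Bak1.

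Among the BH3-only genes, Bcl2l11 (ENSMUSG00000027381, chr2:128126038-128162547, plus strand) encodes BIM, which can bind all prosurvival members. It was at 710.0, 596, 647, and 843 normalized counts in the α4β7+ libraries, at 814, 770.3, 1077, and 825 in the α4β7− CD22− libraries, and at 1140, 1336, 1227, and 1162 in the CD22+ libraries. Every CD22+ library was above every library of the other 2 subsets, whose ranges overlapped each other. The mean rose from 699 ± 107 to 1216 ± 88 (SD, n = 4) between α4β7+ and CD22+ cells, a log2 change of 0.81 ± 0.12 (SE; limma adjusted p = 0.000221). Over α4β7− CD22− cells the difference was 0.49 ± 0.12 on the log2 scale (limma adjusted p = 0.0844), which did not pass. The values sum all transcripts of the gene, so BIM isoforms were not separated.

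The 250 bases before the RefSeq start of Bcl2l11 (chr2:128125788-128126037, GRCm38.p6, plus strand) are shown because it was the called member with the smallest adjusted p and its promoter held a FOXO motif. The capitals mark GTAAACA, which began 227 bases before the start.
Bcl2l11: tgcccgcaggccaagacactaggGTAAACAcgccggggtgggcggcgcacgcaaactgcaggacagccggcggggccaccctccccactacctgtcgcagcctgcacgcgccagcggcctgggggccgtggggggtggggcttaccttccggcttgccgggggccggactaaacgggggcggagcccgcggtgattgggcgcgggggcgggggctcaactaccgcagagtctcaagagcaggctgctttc
Of all 32817 promoters, 3.16% held this motif on either strand, and among the members it was found before Bcl2l11 and Bbc3. Motifs for NF-κB were found before Bbc3 and Bcl2l1 (3.9% of all promoters) and a PU.1 motif also before Bak1. The STAT5 motif TTCNNNGAA (7.01% of all promoters) and the CRE motif TGACGTCA (1.55%) were not in the 15 promoter windows of the 10 members. A match is a description of the letters in the window and was not tested as a binding site.

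Bbc3 (ENSMUSG00000002083, chr7:16308393-16318205, plus strand) encodes PUMA, a BH3-only protein known as a p53 target. Its counts were 60.5, 50.6, 45.4, and 62.2 in the α4β7+ libraries, 41.5, 32.9, 28.0, and 32.9 in the α4β7− CD22− libraries, and 58.0, 44.2, 41.1, and 44.2 in the CD22+ libraries. The lowest values were thus those of the α4β7− CD22− libraries, which lay below all α4β7+ libraries and overlapped the CD22+ libraries by 1 library. The log2 difference of −0.68 ± 0.24 between α4β7− CD22− and α4β7+ cells did not pass (limma adjusted p = 0.0701), nor did that between CD22+ and α4β7+ cells (−0.22 ± 0.24, limma adjusted p = 0.583). Bbc3 was the member with the fewest reads, at about 28 to 59.2 per library, for which counting alone gives a coefficient of variation of 13 to 18.9%.

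Among the prosurvival genes, Bcl2 (ENSMUSG00000057329, chr1:106538178-106714274, minus strand) is the founding member of the family. It was at 505, 427, 586, and 482 normalized counts in the α4β7+ libraries, at 638, 736, 859, and 599 in the α4β7− CD22− libraries, and at 893, 930.2, 782, and 699 in the CD22+ libraries. All 8 libraries of the latter 2 subsets were above every α4β7+ library, and these 2 subsets overlapped each other. Bcl2 rose by 0.72 ± 0.13 on the log2 scale in CD22+ over α4β7+ cells (limma adjusted p = 0.00117). In α4β7− CD22− cells it was higher by 0.50 ± 0.13 (limma adjusted p = 0.0217), a change below 1.5-fold. That adjusted p rose above 0.05, to between 0.051 and 0.0699, without α4β7+ replicate 2 or 4 or without α4β7− CD22− replicate 2 or 3, where the log2 difference was 0.40 to 0.48.

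Mcl1 (ENSMUSG00000038612, chr3:95658788-95663176, plus strand) encodes a prosurvival protein with a short half-life. Its counts were 23172, 21947, 23876, and 23629 in the α4β7+ libraries, 21373, 18931, 18732, and 17709 in the α4β7− CD22− libraries, and 18732, 17192, 16982, and 16704 in the CD22+ libraries. All α4β7+ libraries were above all others, and the spread within a subset was small (coefficient of variation 3.7% to 8.1%). Mcl1 was lower by adjusted p in both subsets, with a log2 difference of −0.41 ± 0.07 in CD22+ (limma adjusted p = 0.000364) and −0.27 ± 0.07 in α4β7− CD22− cells (limma adjusted p = 0.0119), both below 1.5-fold. This difference depended on the scaling: after quantile normalization it was −0.05 (adjusted p = 0.647) and −0.08 (adjusted p = 0.443). Without the variance trend in limma, the difference in α4β7− CD22− cells had an adjusted p of 0.0555. With Bcl2l11 higher and Mcl1 lower, Bcl2l11 stood at 3.02 ± 0.40, 4.57 ± 0.86, and 7.01 ± 0.70 counts per 100 of Mcl1 in the same order of subsets, from α4β7+ to CD22+ (SD, n = 4), a ratio of values already compared and not tested again.

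Bcl2l1 (ENSMUSG00000007659, chr2:152780668-152831728, minus strand), the gene of BCL-XL, had overlapping libraries in all 3 subsets. It was at 434, 368, 478, and 331 normalized counts in the α4β7+ libraries, at 413, 322, 445, and 299 in the α4β7− CD22− libraries, and at 367, 420, 332, and 400.3 in the CD22+ libraries. The log2 difference between CD22+ and α4β7+ cells was −0.08, with a 95% interval from −0.40 to 0.25. The interval includes no change and excludes a change of 1.5-fold in either direction.

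The Bcl2a1 copies encode A1, a prosurvival protein of leukocytes known as an NF-κB target. Bcl2a1b was at 3649, 2835, 4378, and 2731 normalized counts in the α4β7+ libraries, at 3050, 2711, 2676, and 2357 in the α4β7− CD22− libraries, and at 2112, 2050, 1586, and 1819 in the CD22+ libraries. Bcl2a1a was at 1614, 1460, 1658, and 1307 in the α4β7+ libraries, at 1659, 1510, 1303, and 1161 in the α4β7− CD22− libraries, and at 1121, 1090, 804, and 917 in the CD22+ libraries. For both copies every CD22+ library was below every library of the other 2 subsets, which overlapped each other. In CD22+ over α4β7+ cells, Bcl2a1b fell by 0.83 ± 0.14 on the log2 scale (limma adjusted p = 0.000562) and Bcl2a1a fell by 0.63 ± 0.13 (limma adjusted p = 0.00277). The call of Bcl2a1a was lost without α4β7+ replicate 3, at −0.58, and without CD22+ replicate 3, at −0.53, as its change was then below 1.5-fold.

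The third copy read differently in the comparisons with α4β7+ cells. Bcl2a1d was at 571, 422, 833, and 547 normalized counts in the α4β7+ libraries, at 761, 721, 786, and 640.3 in the α4β7− CD22− libraries, and at 575, 516, 391, and 658 in the CD22+ libraries. Its α4β7+ and CD22+ libraries overlapped, with a log2 difference of −0.13 (95% interval −0.53 to 0.27, limma adjusted p = 0.691). In CD22+ over α4β7− CD22− cells the log2 difference of Bcl2a1d was −0.46, beside −0.52 for Bcl2a1a and −0.52 for Bcl2a1b, and none of these passed. Its share of the copies was as follows. Bcl2a1d made up 8.94% to 12.1% of the 3 copies in α4β7+ libraries, 13.9% to 16.5% in α4β7− CD22− libraries, and 14.1% to 19.4% in CD22+ libraries. The α4β7+ shares were below all others, and 89.1% of the words of Bcl2a1d are shared. The part of the read split in this difference was not tested. Over the 3 copies the sum was 5834, 4716, 6868, and 4585 in the α4β7+ libraries, 5470.0, 4942, 4764, and 4158 in those with neither marker, and 3809, 3656, 2781, and 3394 in the CD22+ libraries. The sum was lower in every CD22+ library than in any other library, with a log2 ratio of −0.68 to α4β7+ and −0.51 to α4β7− CD22− cells. As 1 row in the fit, the sum met the call rule in CD22+ over α4β7+ cells. Bcl2 amounted to 9.18 ± 0.91 counts per 100 of this sum with α4β7+, 14.8 ± 2.6 with neither marker, and 24.4 ± 3.2 with CD22 (SD, n = 4).

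**Figure D3:**
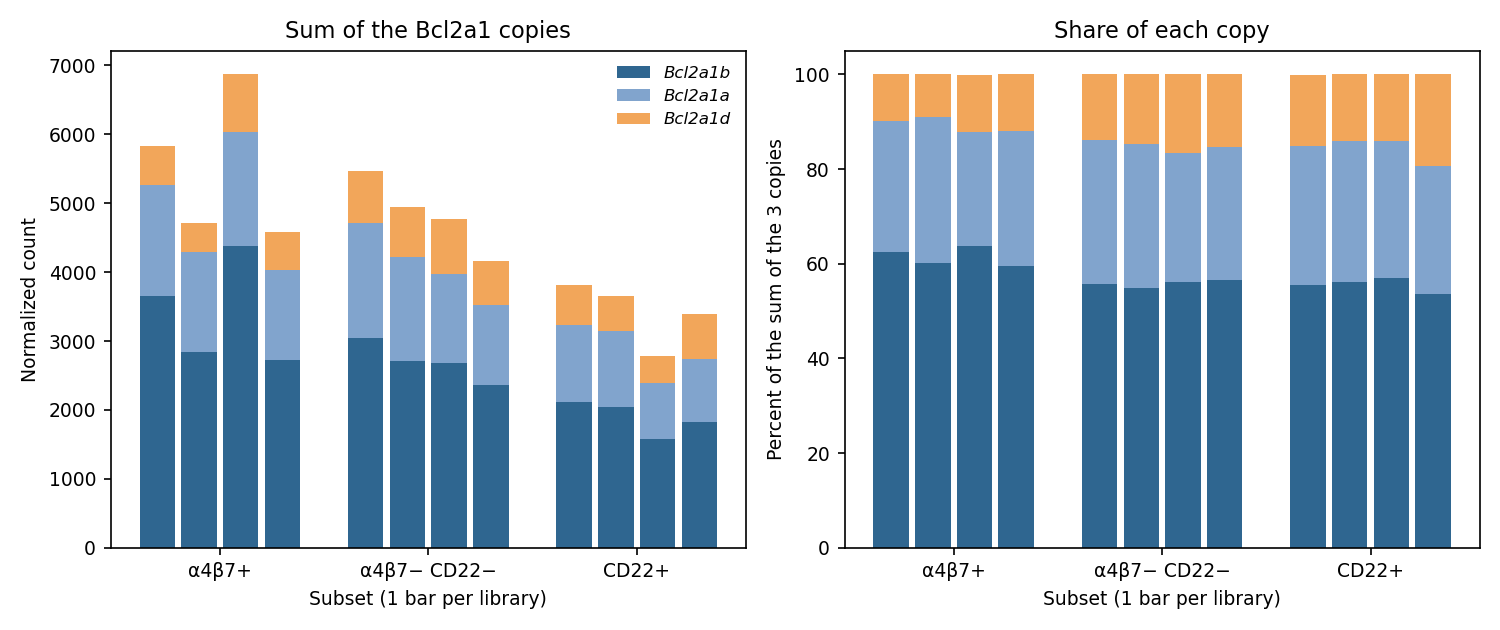
Normalized counts of Bcl2a1b, Bcl2a1a, and Bcl2a1d stacked for each library (left) and the share of each copy in their sum, in percent (right), with 4 bars per subset. The sum is 2781 to 3809 in CD22+ libraries and 4158 or more in all others, and the share of Bcl2a1d is lowest in the α4β7+ libraries.

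The effector genes showed no call. Bak1 (ENSMUSG00000057789, chr17:27019810-27029009, minus strand) was at 994, 1027, 1159, and 1396 normalized counts in the α4β7+ libraries, at 937, 999, 934, and 955 in the α4β7− CD22− libraries, and at 811, 879, 739, and 897 in the CD22+ libraries. The CD22+ libraries were below all others, with a log2 difference from α4β7+ cells of −0.45 ± 0.11 (limma adjusted p = 0.00652), below 1.5-fold. Bax (ENSMUSG00000003873, chr7:45461697-45466898, minus strand) was at 453, 511, 428, and 410.3 in the α4β7+ libraries, at 331, 413, 335, and 354 in the α4β7− CD22− libraries, and at 361, 353, 382, and 424 in the CD22+ libraries. These ranges overlapped, and the log2 differences from α4β7+ cells, −0.33 ± 0.11 in α4β7− CD22− and −0.24 ± 0.11 in CD22+ cells, did not pass (limma adjusted p = 0.0641 and 0.151).

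Between α4β7− CD22− and α4β7+ cells, limma called 0 of 10 members, beside 8.05% of all genes tested (3.70% higher and 4.35% lower). By the adjusted p alone 2 of 10 passed (Bcl2 higher and Mcl1 lower) beside 14.9% of all genes, and by an unadjusted p under 0.05 it was 7 of 10 beside 27.1%. The libraries did not overlap for 3 of 10 members (Bcl2, Mcl1, and Bbc3), beside 18.8% of all genes. Between CD22+ and α4β7− CD22− cells, limma also called 0 of 10 members, beside 0.603% of all genes, and 0 of 10 by the adjusted p alone, beside 1.08%. Here 4 of 10 members had an unadjusted p under 0.05, beside 9.67% of all genes, namely the 3 Bcl2a1 copies and Bcl2l11. The libraries did not overlap for 4 of 10 members (Bcl2l11, Bcl2a1a, Bcl2a1b, and Bak1), beside 6.37% of all genes. Each pair of comparisons shares a subset, so the 3 sets of values are not independent.

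**Figure D4:**
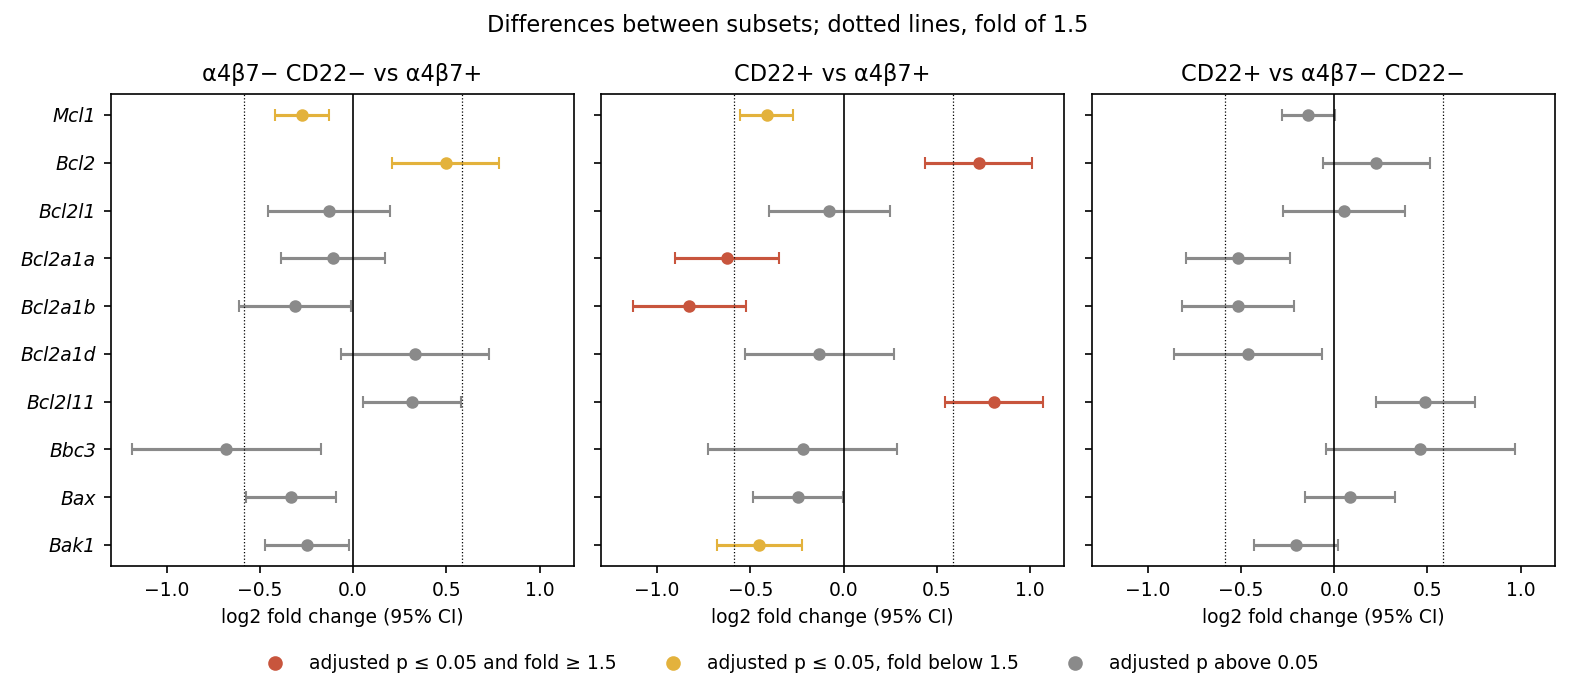
Log2 fold change of the 10 members with its 95% confidence interval in the 3 comparisons (x axis); colours give the call and dotted lines a fold of 1.5. Bcl2 and Bcl2l11 lie to the right and Bcl2a1a and Bcl2a1b to the left of the dotted lines in CD22+ vs α4β7+.

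Other genes of the BCL2 family and of linked pathways were measured beside the members. Each count of calls in a list is to be read against the 12.0% of all genes called in CD22+ over α4β7+ cells (5.60% higher and 6.39% lower, median log2 change 0.01) and the 8.05% called in α4β7− CD22− over α4β7+ cells. Of 16 listed family genes, 12 were above the filter, and in CD22+ over α4β7+ cells 1 rose and 2 fell. Bcl2l2, the gene of prosurvival BCL-W, rose in both comparisons with α4β7+ cells, with means of 71.3 ± 18.5, 149 ± 34, and 255 ± 17 from α4β7+ through α4β7− CD22− to CD22+ cells (log2 change in CD22+ 1.85 ± 0.20, limma adjusted p = 8.79e-06). Bid, the BH3-only gene that links death receptors to mitochondria, fell from 360 ± 28 to 161 ± 22 and 129 ± 6 (log2 change in CD22+ −1.47 ± 0.13, limma adjusted p = 1.48e-06). Bad, another BH3-only gene, fell by 0.71 ± 0.20 on the log2 scale in CD22+ cells (limma adjusted p = 0.0233), a call lost without α4β7+ replicate 3, at −0.58, and without CD22+ replicate 1, at −0.59. The fourth Bcl2a1 copy, Bcl2a1c, was between 1.79 and 14.6 in all libraries and was not tested.

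Downstream of the mitochondria, 13 genes of cytochrome c release and caspases were tested, and 2 rose and none fell in CD22+ over α4β7+ cells, a share of calls near that of all genes. One was Htra2, the gene of a mitochondrial protease (log2 change 1.24 ± 0.18, limma adjusted p = 0.000116), with 37.6% of its 31-base words shared with other genes. The other was Endog, the gene of endonuclease G, with 34.1% of its words shared, whose call was lost in 11 of 22 alternatives. Of 10 genes in a list of inhibitors of apoptosis and related genes, among them Naip1, Naip2, Naip5, Naip6, and Xaf1, 2 fell in CD22+ cells. Birc3, the gene of cIAP2, fell from 14515 ± 1650 to 8129 ± 339 (log2 change −0.83 ± 0.08, limma adjusted p = 3.59e-06), and Naip6, which shares 35% of its words with related genes, fell by 0.62 ± 0.10 (limma adjusted p = 0.000361), a call lost in 4 of 23 alternatives. Naip2, with 32.8% of its words shared, fell in α4β7− CD22− cells, by 0.71 ± 0.11 (limma adjusted p = 0.000583). Of 13 death receptor genes, Fas fell from 296 ± 30 in α4β7+ to 84.2 ± 21 in CD22+ cells (log2 change −1.83 ± 0.20, limma adjusted p = 8.36e-06). Tnfrsf1a, a TNF receptor, rose by 0.94 ± 0.11 (limma adjusted p = 1.98e-05) and Ripk3, a kinase of necroptosis, by 0.62 ± 0.16 (limma adjusted p = 0.0119), though Ripk3 lost its call without α4β7+ replicate 2, CD22+ replicate 1, or CD22+ replicate 4, at 0.50 to 0.58. The medians of these 3 lists were 0.17, −0.45, and 0.08 on the log2 scale.

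Genes of pathways known to act on BCL2 family genes were taken as lists, and their action on the members was not tested. Of 13 genes of the IL-5 receptor family and STAT5 signalling, 7 were called lower and none higher in CD22+ over α4β7+ cells (median log2 change −0.68). Il3ra, the IL-3 receptor chain, fell by 1.30 ± 0.19 (limma adjusted p = 0.000167), and Cish, a STAT5 target, fell by 0.95 ± 0.19 (limma adjusted p = 0.00225). The kinase genes Pim1, Pim2, and Pim3 fell by 0.71 ± 0.08, 0.85 ± 0.28, and 0.79 ± 0.14 (limma adjusted p = 8.1e-06, 0.0474, and 0.000598), and the call of Pim2 was lost in 14 of 23 alternatives and that of Pim1 after quantile normalization. Csf2rb2 fell by 0.79 ± 0.10 (limma adjusted p = 4.91e-05), and 30.1% of its words are shared, mainly with Csf2rb. Il5ra, which was not among the 6 largest changes and was chosen after its values were seen, fell by 0.68 ± 0.07 (limma adjusted p = 5.95e-06). Estimates were above 0 for 3 genes of the list, named after their values were seen. Jak2 was higher by 0.47 ± 0.06 without overlap of the libraries (limma adjusted p = 6.94e-05), a change below 1.5-fold. Csf2rb and Csf2ra, at 0.13 and 0.21, did not pass (limma adjusted p = 0.388 and 0.105).

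Of 14 genes of the NF-κB list, 8 fell and none rose in CD22+ over α4β7+ cells (median log2 change −0.85), and 8 fell also in α4β7− CD22− over α4β7+ cells. Nfkbia, the gene of the inhibitor IκBα, had means of 16134 ± 1088, 1717 ± 111, and 466 ± 85 from α4β7+ through α4β7− CD22− to CD22+ cells, and fell in all 3 comparisons. Tnfaip3, the gene of A20, fell from 24177 ± 984 to 6185 ± 825 and 4323 ± 325. Nfkb2, Nfkbiz, Bcl3, and Nfkbie fell by 1.37 ± 0.09, 1.23 ± 0.11, 1.07 ± 0.17, and 1.03 ± 0.10 in CD22+ over α4β7+ cells. All 6 passed limma with adjusted p between 3.47e-13 and 0.000325. Beside these values stand those of 23 genes known to respond to tissue dissociation, whose sum was 211846 to 260839 with α4β7+, 201417 to 224106 with neither marker, and 155314 to 178533 with CD22. Of these genes, 7 fell and 1 rose in CD22+ over α4β7+ cells, and their part in the lower Bcl2a1 and NF-κB values was not tested.

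Lists with few calls were the following. Of 15 p53 genes tested, Cdkn1a, the gene of p21, fell by 0.79 ± 0.13 and Trp53inp1 rose by 0.76 ± 0.15 (limma adjusted p = 0.000484 and 0.00147) in CD22+ over α4β7+ cells. Of 10 genes that act on BH3-only genes through FOXO and JNK, Jun fell by 1.56 ± 0.13 (limma adjusted p = 6.7e-07) and the others were not called. Of the 6 tested genes of MCL1 protein turnover, limma called 0, with 1 at an unadjusted p under 0.05. This was Fbxw7, the gene of a ubiquitin ligase subunit that targets MCL1, named after its values were seen, which was lower by 0.41 ± 0.09 on the log2 scale (limma adjusted p = 0.00274) without overlap of the libraries, a change below 1.5-fold. Protein levels were not measured.

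**Figure D5:**
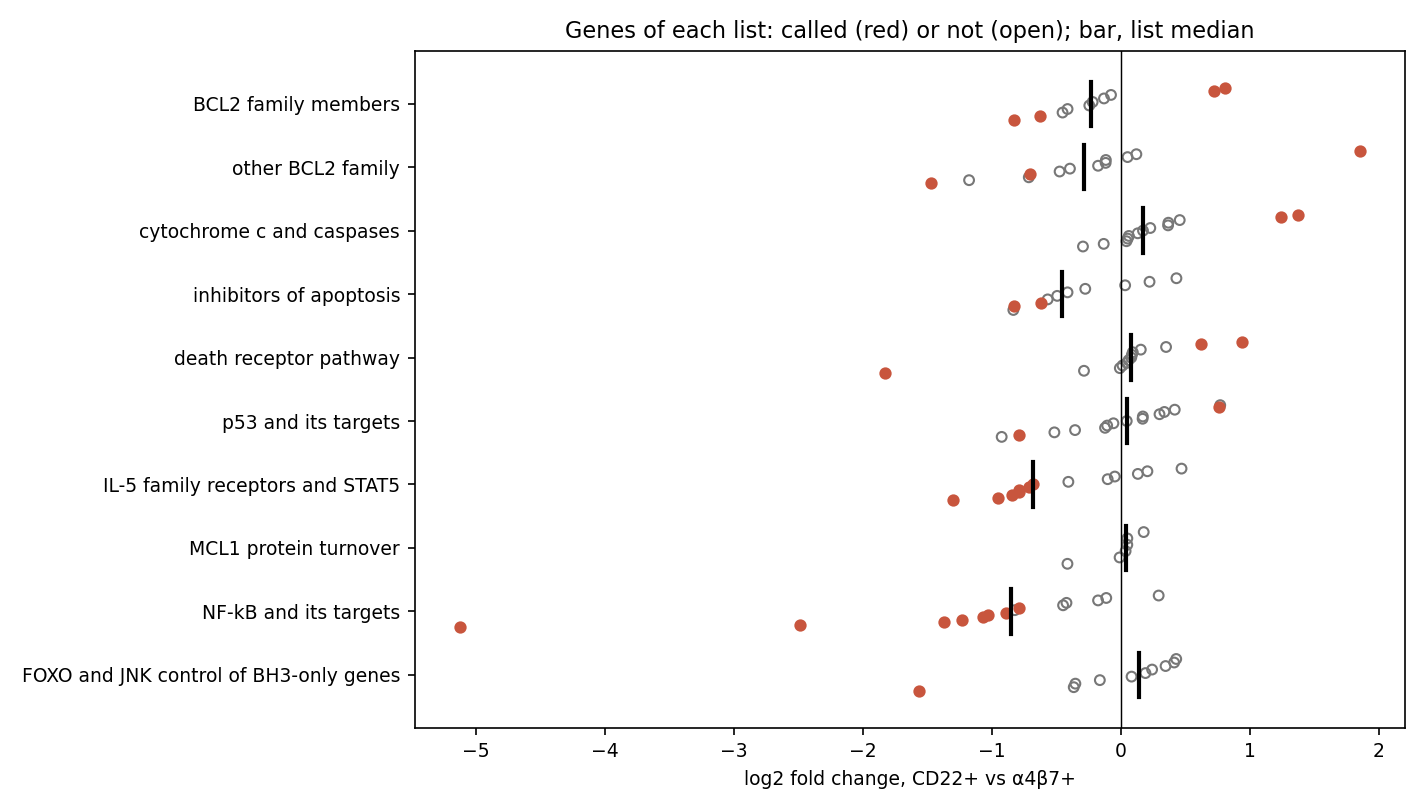
Log2 fold change of CD22+ over α4β7+ cells (x axis) for each tested gene of 10 lists (y axis); red points are called, open points are not, and black bars are list medians. The median is lowest for the NF-κB list, at −0.85, followed by the IL-5 receptor and STAT5 list, at −0.68.

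The genes whose pattern over the 12 libraries was most like that of a member are given as a description, by Pearson's r of log2(normalized count + 1) over libraries that share subsets. For Bcl2l11 these were Wdr7 (r = 0.947), Zkscan7 (r = 0.939), and St14 (r = 0.923). For Bcl2 they included Sipa1l2 (r = 0.956) and Ppp1r12a (r = 0.947). For the summed Bcl2a1 copies they were Il1rn (r = 0.961), Il1a (r = 0.957), and Gsr (r = 0.949). Il1a and Il1rn encode an IL-1 cytokine and the IL-1 receptor antagonist.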

How the data were processed

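RNA of 3 sorted eosinophil subsets was measured in 12 libraries, 4 for each. The authors prepared stranded total RNA libraries for small inputs and, per the submitters' processing notes, used Trimmomatic 0.39, kallisto 0.46.1, and DESeq2 1.38.2 on GRCm38 (mm10). The deposited signal values are DESeq2-normalized counts, and the strand setting is not given in the sources used here. Library totals are those of normalized counts, and floors cover counting error only, whereas the 95% intervals of log2 differences come from limma and rest on the spread between libraries. All 12 columns were matched to libraries by title.

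The test was limma (version 3.58.1, R 4.3.3), applied to log2(normalized count + 1) of genes whose mean over the libraries exceeded 10, a scale that understates changes of low genes, with all 3 subsets in the fit and a variance trend. For their own calls the authors used DESeq2 with the same filter and thresholds. Benjamini-Hochberg adjustment ran within each comparison over 15249 genes, and a call needed a change of 1.5-fold or more with adjusted p ≤ 0.05. Scripts were tested on simulated data.

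The members and lists were chosen with earlier results of these data known. List genes are given with values where called, at most 6 a list by the largest change, and the most alike genes are the 3 with the highest r for the 3 members that changed most, with the Bcl2a1 copies counted as 1. Some genes that these rules name are not reported here. Transcripts and positions came from GENCODE (release M 21), of which 35968 identifiers matched, and promoters from RefSeq. One row with the symbol Bcl2l2 carries the identifier of Pabpn1 and was left out of the list. The alternatives were 11 other settings and each of the 12 libraries left out in turn. The labels number the libraries and do not say which share animals, so p-values measure the spread between these libraries. Those with the same number in CD22+ and α4β7− CD22− deviated together (r of 0.135 to 0.203 for all 4 numbers), a pairing that comes from the data and not from the labels. For α4β7− CD22− with α4β7+, 2 of 4 numbers had an r over 0.1, and for CD22+ with α4β7+ it was 1 of 4. By the highest r, 6 of 8 and 4 of 8 libraries in these comparisons were closest to their own number. For CD22+ with α4β7− CD22− this was 8 of 8. Figures were made with matplotlib 3.10.9 and pandas 2.3.3.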

Additional observations from a re-analysis of the deposited data

How the results depend on the processing

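In CD22+ over α4β7+ cells, the members called numbered 3 to 6 under all alternatives, and Bcl2l11, Bcl2, and Bcl2a1b kept their calls in each alternative that held them as separate genes. With the adjusted p alone, 6 members passed. In α4β7− CD22− over α4β7+ cells, 1 member (Bbc3) was called without the variance trend and 2 (Bcl2 and Mcl1) with the adjusted p alone, against 0 in the main test. In CD22+ over α4β7− CD22− cells, leaving out 1 library gave between 0 and 1 member, the latter being Bcl2l11 without α4β7− CD22− replicate 3 (log2 change 0.60, limma adjusted p = 0.0335). With the replicate block, 0, 4, and 0 members were called in the 3 comparisons, as without it, and the pairing changed no call of a member.

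The sign turned for members near no change. Mcl1 in CD22+ over α4β7− CD22− cells was 0.032 after quantile normalization (adjusted p = 0.928). When 1 library was left out in turn, Bcl2l1 ranged from −0.165 to 0.0113 and Bcl2a1d from −0.28 to 0.0467 in CD22+ over α4β7+ cells, and Bcl2l1 from −0.043 to 0.148 in CD22+ over α4β7− CD22− cells. The cause was not tested. The median log2 change of all genes moved by less than 0.1 under both scalings. Bbc3 had the fewest reads of the members, and the limit set by depth was not compared between members.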
